A study of Mus musculus with 9 samples.

Results

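Interferon-stimulated genes are the transcripts that a cell makes after an interferon binds its receptor, or after a sensor of viral nucleic acid fires inside it. A list of 35 such mouse genes was read from the deposited gene table, 35 of 54453 rows, and each name matched 1 Ensembl gene. The tumors are primary pancreatic tumors of the KPC mouse, 4 labelled Scrib WT (genotype KPF/+C; tumors WT 2, WT 3, WT 6 and WT 9) and 5 labelled Scrib null (KPF/+CSF/F; tumors null 7, null 14, null 15, null 18 and null 23). All 9 are labelled strain KPC, a name that in this field stands for a pancreatic cancer model driven by Cre recombinase. The labels do not spell out its alleles, the driver of Cre, the age of the mice or whether each tumor came from a mouse of its own, and each p-value therefore reflects only how far these tumors vary. Scrib encodes a scaffold of epithelial polarity, and the series asks how tumors with and without it differ.

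Type I interferons bind the receptor IFNAR and, through the kinases JAK1 and TYK2, assemble a factor that contains STAT2 and IRF9 and binds the interferon-stimulated response element in the promoters of these genes. Interferon gamma acts through its own receptor and STAT dimers, which bind a different site and induce a partly shared set that includes IRF1 and the guanylate-binding proteins. In tumors the response can run in cancer cells, stroma or leukocytes, and whole-tissue RNA does not separate them.

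Estimated counts summed to between 10145830 and 27596832 per tumor, and 16169 genes passed the filter on low counts, all 35 members among them. Levels are given as CPM, counts scaled to a common library total, after TMM scaling, which adjusts each library for its composition. Scrib mRNA was 88.5, 44.1, 62.0 and 87.4 CPM in tumors WT 2, WT 3, WT 6 and WT 9 and 102.2, 53.8, 55.4, 53.2 and 36.9 CPM in tumors null 7, null 14, null 15, null 18 and null 23. The groups overlapped, and null over WT the log2 fold change was -0.23 (SE 0.31, edgeR adjusted p = 0.712). A gene total does not show single exons, so it does not check a deletion, and the groups below rest on the labels. Epcam, Krt8, Krt19 and Cdh1, which mark ductal epithelium, were at 574 CPM or more in every tumor. Tumors WT 3 and null 7 stood apart: over all genes tested WT 3 was the highest tumor for 21.01% and the lowest for 26.4%, and null 7 for 17.2% and 20.4%. By Xist and Y-linked transcripts WT 3, null 7 and null 18 were male and the other 6 tumors female.

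The promoters show what many members share in sequence. RefSeq windows on GRCm38.p6, from 250 bases before to 50 bases after a start, were at hand for 26 of the 35 members. They were searched on both strands for GAAA followed by any 2 bases and GAAA again, the core of the interferon-stimulated response element, and for TTC, any 3 bases and GAA, the site of STAT dimers. A core on the opposite strand begins with TTTC in the stretches below. The first motif lay in a window of 14 members (53.8%), against 3.99% of all 27025 genes with a window. The second lay in 6 members (23.1%), Irf1, Ifit2, Oas1a, Gbp7, Bst2 and Ifi35, against 9.55% of all genes. The stretches below lie before both the RefSeq and the GENCODE start and are shown because they hold the response element core, in capitals, beside genes whose levels are described next; each reads 5′ to 3′ on the strand of its gene.
Isg15: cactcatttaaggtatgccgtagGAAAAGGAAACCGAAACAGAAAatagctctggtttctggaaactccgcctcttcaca
Ifit1: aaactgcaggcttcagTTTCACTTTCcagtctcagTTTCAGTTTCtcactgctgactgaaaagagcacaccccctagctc
Ifit3: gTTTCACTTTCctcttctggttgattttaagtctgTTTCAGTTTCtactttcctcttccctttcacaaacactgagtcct
Oas1a: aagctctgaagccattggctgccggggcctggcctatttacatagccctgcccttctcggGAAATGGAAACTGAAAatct
Oas3: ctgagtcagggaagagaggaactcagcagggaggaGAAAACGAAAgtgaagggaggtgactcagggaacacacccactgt
Rsad2: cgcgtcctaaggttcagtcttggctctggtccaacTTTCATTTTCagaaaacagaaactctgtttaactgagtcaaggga
Bst2: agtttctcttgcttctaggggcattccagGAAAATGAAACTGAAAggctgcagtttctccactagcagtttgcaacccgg
Stat2: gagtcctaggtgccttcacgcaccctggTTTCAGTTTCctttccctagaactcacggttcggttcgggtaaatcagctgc
Gbp3: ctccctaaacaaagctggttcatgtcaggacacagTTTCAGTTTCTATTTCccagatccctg
Gbp7: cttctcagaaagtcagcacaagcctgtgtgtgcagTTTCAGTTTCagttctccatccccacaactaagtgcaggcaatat
Trim30a: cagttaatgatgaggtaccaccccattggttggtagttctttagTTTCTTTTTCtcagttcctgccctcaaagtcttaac

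In GRCm38 coordinates these stretches are chr4:156200840-156200919 for Isg15, chr19:34640769-34640848 for Ifit1, chr19:34583372-34583451 for Ifit3, chr5:120907526-120907605 for Oas1a, chr5:120777690-120777769 for Oas3, chr12:26456528-26456607 for Rsad2, chr8:71537552-71537631 for Bst2, chr10:128270248-128270327 for Stat2, chr3:142559964-142560025 for Gbp3, chr3:142530248-142530327 for Gbp7 and chr7:104465194-104465273 for Trim30a. Ifit1, Ifit3, Stat2, Gbp3 and Gbp7 lie on the plus strand, with Ifit3 and Ifit1 close together on chromosome 19, and the other 6 on the minus strand. In Isg15 3 overlapping copies of the motif begin 78, 72 and 66 bases before the start and form 1 run of repeats. Ifit1 holds 2 separate copies in reverse orientation, at 104 and 85 bases before the start, and Ifit3 has 2 at 156 and 122 bases. The paired copies of Oas1a, Bst2 and Gbp3 overlap. Gbp2 holds the motif 59 bases before its RefSeq start, inside the GENCODE gene, and in Ifih1 and Ddx58 the match lies after the start. No match was found in the windows of 12 members, Irf1, Irf7, Irf9, Ifit2, Oasl1, Oasl2, Herc6, Cmpk2, Dtx3l, Xaf1, Ifi35 and Ifi44, which says only that these letters are not in these windows.

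No interferon-stimulated gene of the list passed the test between the tumors labelled Scrib null and Scrib WT. Of the 35 members 0 passed the adjusted threshold in either direction (edgeR, false discovery rate under 0.05 over all genes by Benjamini-Hochberg), where 0.0124% of all genes tested were called, and DESeq2 and limma-voom also called 0 members, against 3.39% and 0.0371% of the genes each tested. Isg15, Mx2 and Rsad2 were given no p-value by DESeq2, so it could not call them. At an unadjusted p under 0.05 edgeR had 1 member lower, Trim30a, and 0 higher, against 10% and 7.64% of all genes. Signs were divided, with 19 members below 0 and 16 above, and 52.2% of all genes were below 0. The median log2 fold change was -0.080 over the members and -0.035 over all genes. Fold changes ran from -0.97 for Trim30a to 0.85 for Mx2, with adjusted p from 0.227 to 0.957. Confidence intervals were wide: that of Usp18 ran from -1.18 to 2.70, and that of Parp9, among the narrowest, from -0.83 to 0.36. The sign of the median rested on single tumors. It was 0.37, with 10 members below 0, without WT 3, and -0.28, with 28 below 0, without null 7. Without both it was 0.15, with 15 below 0.

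**Figure D1:**
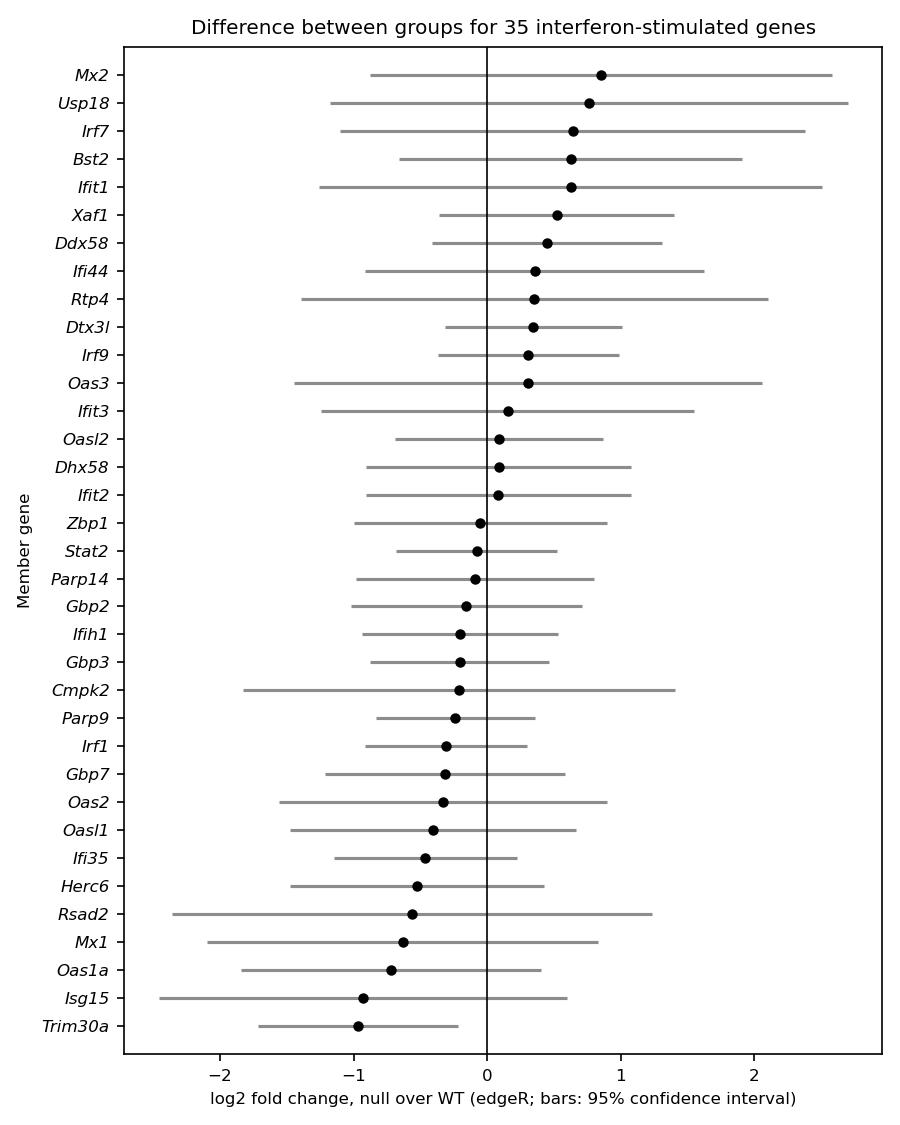
Log2 fold change, null over WT, for each of the 35 members (points) with its 95% confidence interval from the edgeR fit (bars); the vertical line marks no difference. The intervals of 34 members cross 0, and that of Trim30a runs from -1.71 to -0.22.

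Among the transcription factors of the response, Irf7 varied most. IRF7 is made after a first round of interferon signalling and then drives further interferon genes. Irf7 (chr7:141262706-141266481) stood at 5.83, 43.9, 5.31 and 15.8 CPM in WT 2, WT 3, WT 6 and WT 9 and at 82.6, 13.4, 16.4, 16.3 and 9.11 CPM in null 7, null 14, null 15, null 18 and null 23. The high tumors were null 7 and WT 3, 1 of each group, and the low ones WT 6 and WT 2. The groups overlapped (log2 fold change 0.64, SE 0.79, edgeR adjusted p = 0.675). Its 3′ end overlaps Phrf1 on the other strand by 45 bases. Irf9, the DNA-binding part of the type I factor, had 27.4, 40.7, 38.8 and 29.3 CPM in the same order of tumors labelled WT and 72.9, 43.7, 39.0, 26.4 and 29.0 CPM in those labelled null. Null 7 was again highest, and the other 8 tumors lay between 26.4 and 43.7 CPM (log2 fold change 0.31, edgeR adjusted p = 0.597). Stat2, its partner, had 35.5, 30.8, 17.4 and 24.3 CPM in the WT and 36.5, 25.1, 21.4, 18.1 and 26.6 CPM in the null tumors. The highest tumor exceeded the lowest 2.09-fold for Stat2, 2.76-fold for Irf9 and 15.6-fold for Irf7. Irf1, which answers interferon gamma more than the type I factor, had 35.2, 74.1, 45.5 and 52.9 CPM in the WT and 36.9, 31.2, 56.1, 54.1 and 31.6 CPM in the null tumors. It was highest in WT 3, while null 7 lay below WT 3, WT 9 and WT 6 (log2 fold change -0.31, edgeR adjusted p = 0.557).

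Sensors of viral nucleic acid are themselves induced by interferon. Ddx58, which encodes RIG-I, a helicase that binds viral RNA ends, had 16.05, 9.79, 5.00 and 12.5 CPM in the WT tumors and 25.9, 11.4, 10.8, 13.5 and 12.1 CPM in the null tumors. Null 7 stood above all others and WT 6 below all others (log2 fold change 0.45, SE 0.39, edgeR adjusted p = 0.548). Ifih1, which encodes MDA5, a sensor of long double-stranded RNA, had 10.6, 16.6, 6.16 and 14.2 CPM in the WT and 14.6, 7.89, 9.58, 10.3 and 9.18 CPM in the null tumors. WT 3 was highest here and WT 6 lowest. Dhx58, encoding LGP2, a regulator of both, had 4.52 ± 1.85 CPM in the WT (SD, n = 4) and 4.79 ± 2.18 CPM in the null group (SD, n = 5). Zbp1, a sensor of Z-form nucleic acid that can start necroptosis, had 4.90 ± 2.57 CPM in the WT (SD, n = 4) and 4.71 ± 1.98 CPM in the null group (SD, n = 5), with WT 3 at 8.59 and null 15 at 8.21 CPM and the other 7 tumors at 4.69 CPM or below. Log2 fold changes were -0.20, 0.085 and -0.053 for these 3 genes (edgeR adjusted p from 0.758 to 0.957).

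The IFIT proteins bind viral RNA that lacks host caps, and their genes lie side by side on chromosome 19. Ifit1 (chr19:34640871-34650009), with 2 copies of the response element core in the stretch printed above, had 0.860, 7.47, 0.731 and 2.78 CPM in the WT tumors and 13.4, 1.10, 2.84, 2.94 and 2.47 CPM in the null tumors. Null 7 and WT 3 were the 2 highest tumors, and the highest exceeded the lowest, WT 6, 18.3-fold. Estimated counts of Ifit1 ran from 9 to 265, so the low tumors carry counting error as well. Ifit3 had 4.73 ± 3.83 CPM in the WT (SD, n = 4) and 5.25 ± 3.90 CPM in the null group (SD, n = 5) and Ifit2 2.45 ± 0.689 CPM in the WT (SD, n = 4) and 2.60 ± 1.405 CPM in the null group (SD, n = 5). For each of the 3 genes null 7 was the highest tumor, with 11.96 CPM of Ifit3 and 4.94 CPM of Ifit2. None passed the test between groups, with log2 fold changes of 0.62, 0.15 and 0.083 (edgeR adjusted p from 0.707 to 0.937). Ifit3 has the near-identical neighbour Ifit3b, whose level was 3.78 CPM in null 7 and 0.579 to 1.80 CPM elsewhere, so the split of reads between them is uncertain.

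OAS proteins sense double-stranded RNA and make a nucleotide second messenger, and their genes lie in groups on chromosome 5. Oas1a (chr5:120896256-120907521) had 9.36, 18.9, 6.04 and 30.9 CPM in the WT tumors and 16.4, 13.8, 7.87, 5.73 and 5.65 CPM in the null tumors. WT 9, not WT 3 or null 7, was highest, and the groups overlapped (log2 fold change -0.72, SE 0.51, edgeR adjusted p = 0.455). Reads of its near copy Oas1g, at 9.20 CPM in WT 9, may be shared with it. Oas2 had 4.68, 9.79, 1.54 and 2.78 CPM in the WT and 4.84, 3.21, 5.34, 1.53 and 3.60 CPM in the null tumors. The highest tumor was WT 3 and the lowest were null 18 and WT 6. Oas3 had the widest range of all members, 19.4-fold, from 0.731 CPM in WT 6 to 14.2 CPM in null 7. The OAS-like gene Oasl1 had 15.98 ± 9.74 CPM in the WT (SD, n = 4) and 12.1 ± 5.41 CPM in the null group (SD, n = 5). Oasl2, also OAS-like, had 15.0 ± 7.90 CPM in the WT (SD, n = 4) and 15.9 ± 3.73 CPM in the null group (SD, n = 5). Log2 fold changes were -0.33 for Oas2, 0.30 for Oas3, -0.41 for Oasl1 and 0.086 for Oasl2 (edgeR adjusted p from 0.661 to 0.915).

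Mx GTPases block viral nucleoproteins, and many laboratory mouse strains carry a defective Mx1. Per length, their mean levels were the lowest of the members, 0.452 and 0.439 CPM per kilobase of exon. Mx1 had 0.669, 4.12, 0.654 and 3.08 CPM in the WT tumors and 2.98, 0.894, 0.753, 1.23 and 1.02 CPM in the null tumors, from 7 to 71 estimated counts. WT 3, WT 9 and null 7 were the high tumors. Mx2 had 0.573, 2.32, 0.462 and 1.04 CPM in the WT and 6.11, 0.736, 0.958, 1.27 and 0.812 CPM in the null tumors. Null 7 stood alone at the top. The log2 fold changes, -0.63 for Mx1 and 0.85 for Mx2, had opposite signs (edgeR adjusted p = 0.617 and 0.566).

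ISG15 is a ubiquitin-like protein that is joined to other proteins, USP18 removes it and also blocks the type I receptor, and HERC6 is the mouse ligase. Isg15 (chr4:156199424-156200818) had 2.77, 36.1, 4.16 and 5.99 CPM in the WT tumors and 11.0, 5.52, 5.48, 5.51 and 4.52 CPM in the null tumors. WT 3 stood far above the rest, null 7 came second, and the other 7 tumors lay between 2.77 and 5.99 CPM. The log2 fold change was -0.93 (SE 0.69, edgeR adjusted p = 0.482), and 0.61 without WT 3. Usp18 had 2.87, 20.3, 2.08 and 3.08 CPM in the WT and 27.0, 19.6, 3.18, 7.48 and 2.44 CPM in the null tumors. Null 7, WT 3 and null 14 were the high tumors, and null 14 was not among the high ones for Isg15, at 5.52 CPM. Its log2 fold change was 0.76 (SE 0.88, edgeR adjusted p = 0.651). Herc6 had 4.87, 8.51, 2.23 and 6.38 CPM in the WT and 3.89, 3.47, 5.78, 2.38 and 3.49 CPM in the null tumors. It was highest in WT 3, while null 7 lay below 3 of the 4 tumors labelled WT (log2 fold change -0.53, edgeR adjusted p = 0.519).

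**Figure D2:**
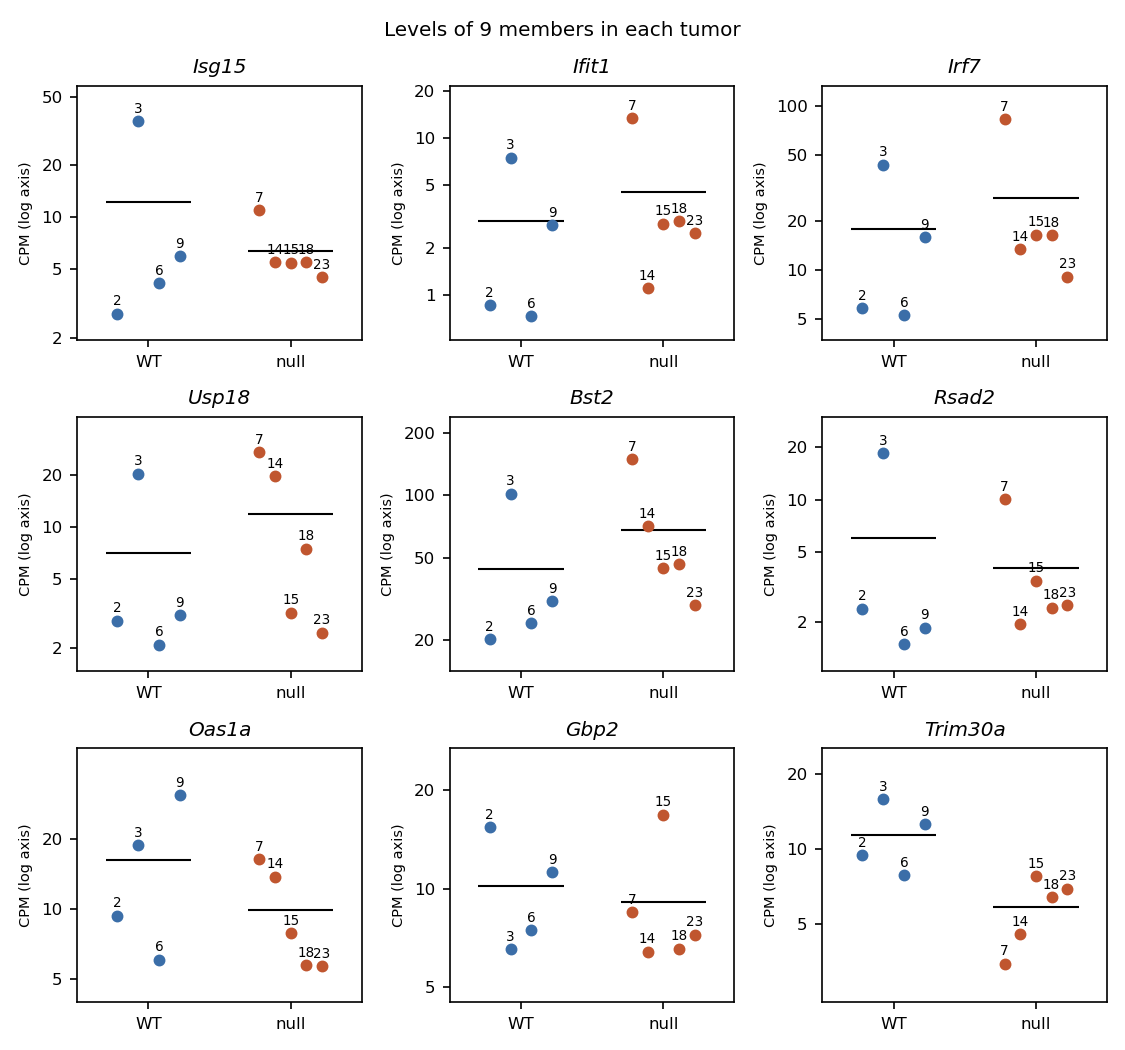
CPM (log axis) of 9 members in each tumor, with the tumor number beside its point and the arithmetic mean of each group as a line. Tumors WT 3 and null 7 lead their groups for Isg15, Ifit1, Irf7, Usp18, Bst2 and Rsad2, Oas1a is highest in WT 9, Gbp2 in null 15, and the groups do not overlap for Trim30a.

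Among antiviral proteins of membranes and nucleotide metabolism, Bst2 was the member with the highest level per length, 63.7 CPM per kilobase of exon over all tumors, followed by Ifi35 at 13.0 and Isg15 at 11.9; the lowest was Mx2 at 0.439. Bst2, tetherin, holds budding virions at the cell surface and also marks plasmacytoid dendritic cells in the mouse. It had 20.1, 102, 24.0 and 30.7 CPM in the WT tumors and 149.9, 70.8, 44.3, 46.4 and 29.4 CPM in the null tumors. Null 7 and WT 3 were highest, followed by null 14, and the groups overlapped (log2 fold change 0.63, SE 0.58, edgeR adjusted p = 0.570). Rsad2, viperin, makes a chain-terminating nucleotide, and Cmpk2, its neighbour on chromosome 12 on the opposite strand, makes the precursor. Rsad2 had 2.39, 18.5, 1.501 and 1.87 CPM in the WT and 10.1, 1.95, 3.46, 2.42 and 2.51 CPM in the null tumors. WT 3 and null 7 were the only tumors above 3.46 CPM (log2 fold change -0.56, edgeR adjusted p = 0.726), and without WT 3 the log2 fold change was 1.14. Cmpk2 showed the same 2 tumors on top, at 7.22 and 6.31 CPM, against 0.577 to 2.17 CPM in the other 7. For Rtp4, a transporter chaperone that is induced by interferon, null 7 and WT 3 had 24.4 and 19.1 CPM and the other tumors 2.10 to 8.99 CPM. An end of Rtp4 overlaps Masp1 on the other strand by 525 bases.

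Guanylate-binding proteins, GTPases that attack pathogen membranes and answer interferon gamma strongly, did not share this order of tumors. Gbp2 had 15.4, 6.53, 7.47 and 11.2 CPM in the WT tumors and 8.48, 6.42, 16.8, 6.55 and 7.24 CPM in the null tumors. WT 2 and null 15 were high, and WT 3 and null 7 were not. Gbp3 had 6.44 ± 0.897 CPM in the WT (SD, n = 4) and 5.58 ± 1.51 CPM in the null group (SD, n = 5), the narrowest range of all members at 1.94-fold. Gbp7 was lowest in WT 3, at 3.61 CPM, and next lowest in null 7, at 4.14 CPM, and highest in WT 9, at 12.6 CPM. Log2 fold changes were -0.16, -0.21 and -0.32 for the 3 genes (edgeR adjusted p from 0.690 to 0.848). All 3 windows hold the response element core, as those of Ifit1 and Isg15 do.

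PARP9 and the ligase DTX3L form a complex that modifies histones and viral proteases, and PARP14 is a related mono-ADP-ribosyltransferase. The genes lie together on chromosome 16, where Parp9 and Dtx3l overlap head to head by 682 bases on opposite strands. The sources used here do not say whether counting used strand, so reads of the 2 strands cannot be told apart, here or in Gm15564, an antisense gene that overlaps Parp9 by 5854 bases. Dtx3l had 20.9, 14.8, 10.3 and 26.0 CPM in the WT tumors and 31.9, 23.0, 20.7, 21.2 and 17.5 CPM in the null tumors. WT 6 was lowest and null 7 highest (log2 fold change 0.35, SE 0.30, edgeR adjusted p = 0.548). Parp9 had 31.5 ± 8.88 CPM in the WT (SD, n = 4) and 26.7 ± 7.41 CPM in the null group (SD, n = 5) and Parp14 21.3 ± 10.6 CPM in the WT (SD, n = 4) and 20.01 ± 4.72 CPM in the null group (SD, n = 5). For Parp14 WT 6, at 5.93 CPM, lay apart from the other 8 tumors, at 15.0 to 29.8 CPM. Their log2 fold changes were -0.24 and -0.090 (edgeR adjusted p = 0.645 and 0.923).

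Of the remaining members, Trim30a was the only one of the 35 whose groups did not overlap, being lower in null, where 3.49% of all genes tested were lower and 3.42% higher without overlap. TRIM30A restrains NF-kappaB signalling and restricts retroviruses. The gene (chr7:104409025-104465193) had 9.46, 15.9, 7.89 and 12.6 CPM in the WT tumors and 3.48, 4.58, 7.80, 6.44 and 6.95 CPM in the null tumors. The lowest tumor labelled WT, WT 6, stood just above the highest labelled null, null 15. The lowest tumor of all was null 7, which was highest for 15 other members. Its log2 fold change of -0.97 (SE 0.34) did not pass (edgeR adjusted p = 0.227), and over 24 alternative settings it ran from -1.11 to -0.51 with adjusted p of 0.0885 or more. For its neighbour Trim30d the log2 fold change was -0.081 (edgeR adjusted p = 0.941). Xaf1, which promotes cell death by blocking an inhibitor of apoptosis, had 11.3, 20.2, 7.16 and 15.9 CPM in the WT and 36.8, 17.9, 15.6, 15.5 and 11.9 CPM in the null tumors. Null 7 was highest and WT 6 lowest (log2 fold change 0.52, edgeR adjusted p = 0.493). Ifi35 had 20.2, 42.1, 18.9 and 25.0 CPM in the WT and 28.2, 18.5, 21.4, 15.1 and 13.1 CPM in the null tumors. WT 3 was highest, null 7 second and null 23 lowest (log2 fold change -0.46, SE 0.31, edgeR adjusted p = 0.433). Ifi44 had 2.46 ± 2.16 CPM in the WT (SD, n = 4) and 3.12 ± 1.29 CPM in the null group (SD, n = 5), with WT 3 and null 7 on top.

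**Figure D3:**
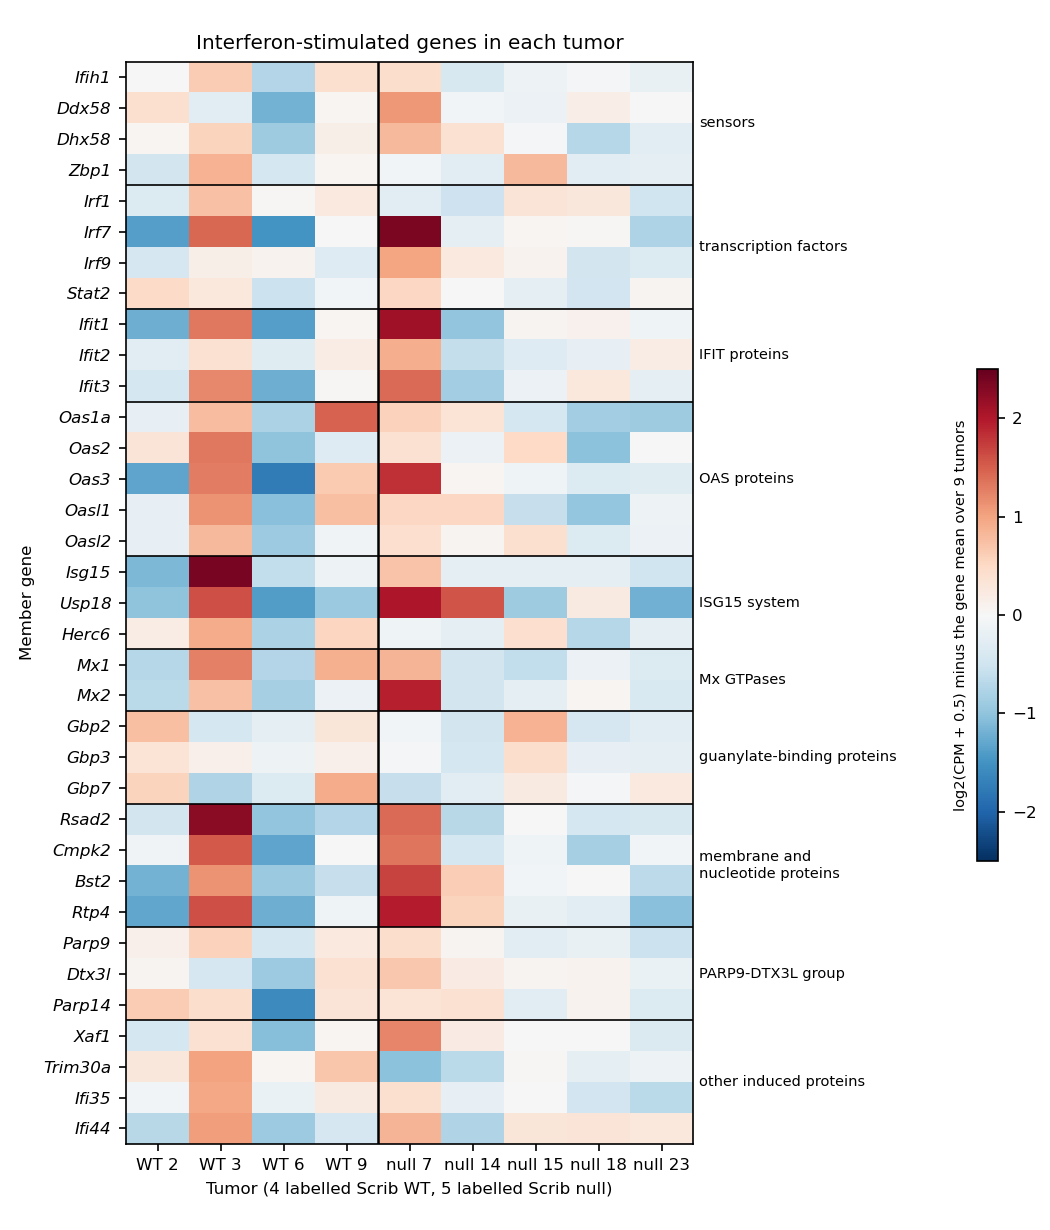
Deviation of each member from its own mean over the 9 tumors, in log2(CPM + 0.5), with members in rows by role and tumors in columns (WT left, null right of the line). Columns WT 3 and null 7 are red for most rows, but not for Gbp2 and Gbp7. Column WT 6 is blue for most rows, the guanylate-binding proteins among them, and Trim30a is blue in null 7.

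The members shared an order of tumors that cut across the groups. WT 3 and null 7 were each the highest tumor for 15 of 35 members, together 30 of 35, where they were the highest for 38.2% of all genes tested. WT 3 led the tumors labelled WT for 27 members and null 7 those labelled null for 26, and both held for 22 members (62.9%) against 9.89% of all genes. WT 6 was the lowest of all tumors for 20 members, against 7.496% of all genes. These counts include roles across the response: all 3 IFIT genes, both Mx genes, all 3 genes of the ISG15 system, all 4 sensors and all 4 transcription factors had WT 3 or null 7 on top, and 0 of the 3 guanylate-binding proteins did. Because WT 3 and null 7 are at the extremes of many genes, the order was also read without them. Among the other 7 tumors WT 9 was highest for 13 members against 13.3% of all genes, and null 15 for 8 against 10.9%. Null 14 was highest for 6 members against 14.3% of all genes, a share near the background, WT 2 for 3 against 18.4% and WT 6 for 0 against 21.4%.

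**Figure D4:**
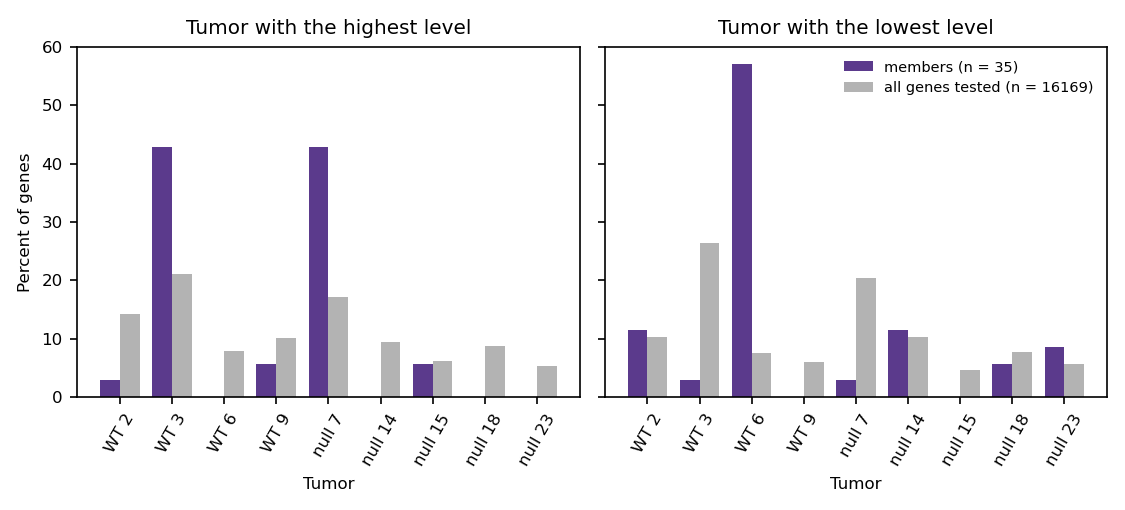
Percent of the 35 members (purple) and of all 16169 genes tested (grey) for which each tumor had the highest (left) or the lowest level (right). WT 3 and null 7 take 30 of the 35 highest places, and WT 6 takes 20 of the lowest.

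The median SD of a member within groups was 0.66 log2 CPM, against 0.53 over all genes tested, and 0.49 against 0.43 without WT 3 and null 7. Members were low genes, with a median mean level of 2.72 log2 CPM against 4.24 over all genes, and the part of level in the larger SD was not tested. The highest tumor exceeded the lowest by a median of 5.03-fold over the members and 3.52-fold over all genes, and by more than 10-fold for 9 members (25.7%) against 20.8% of all genes. The 9 were Oas3, Ifit1, Irf7, Mx2, Isg15, Usp18, Cmpk2, Rsad2 and Rtp4. Among members with a promoter window, this range had a median of 5.32-fold for the 14 with the response element core and 3.65-fold for the 12 without it. The 2 sets overlapped widely, from 1.94-fold to 19.4-fold and from 2.38-fold to 15.6-fold.

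Interferon transcripts themselves had few counts. Of 21 genes for type I, II and III interferons 0 passed the filter and 15 had 0 counts in every tumor, which allows up to 0.103 to 0.287 CPM per tumor (3 counts, counting error only). Ifnz, which had the most, reached 37 estimated counts in all, with 5, 0, 7 and 3 in the WT and 0, 0, 5, 4 and 13 in the null tumors, so that WT 3 and null 7 had 0. Ifne, the epithelial interferon epsilon, had 12 counts over 6 tumors, 4 at most in 1 tumor. Ifnb1, which encodes interferon beta, had 2 estimated counts in WT 3, 3 in null 7, 5 in null 15, 2 in null 23 and 0 in the other 5 tumors. Ifng had 2 counts, both in null 15. Receptors were well above this. Ifnar1, the type I receptor chain, had 87.9 ± 10.6 CPM in the WT (SD, n = 4) and 80.8 ± 10.6 CPM in the null group (SD, n = 5).

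Of the pathway genes outside the list, edgeR and limma-voom called 0. DESeq2 called Slfn2, Psmb8 and Psmb9, all lower in null (DESeq2 adjusted p = 0.0166, 0.0276 and 0.0279). Over all genes it tested DESeq2 called 3.39%. Of 10 receptors and kinases 0 passed, and 2 were lower at an unadjusted p under 0.05. Over all genes tested 10% were lower and 7.64% higher at that level by edgeR. Ifngr1, the ligand-binding chain for interferon gamma, had 212, 249.7, 174 and 216 CPM in the WT and 72.8, 155, 109, 140.1 and 116 CPM in the null tumors. Its groups did not overlap, and null 7 was lowest (log2 fold change -0.84, SE 0.24, edgeR adjusted p = 0.207). Over all genes tested 3.49% were lower and 3.42% higher in null without overlap. Of 14 genes of sensing and induction 0 passed, 1 was higher and 2 were lower at that level. The endosomal RNA sensor Tlr3 had 20.5 ± 3.48 CPM in the WT (SD, n = 4) and 33.4 ± 7.77 CPM in the null group (SD, n = 5), without overlap (log2 fold change 0.71, edgeR adjusted p = 0.221), and Tlr7, found mostly in myeloid and plasmacytoid cells, had 5.33 ± 4.09 CPM in the WT (SD, n = 4) and 1.81 ± 0.732 CPM in the null group (SD, n = 5). Of 9 genes that restrain the pathway 0 passed and 1 was lower, Socs1, with 8.35 ± 3.37 CPM in the WT (SD, n = 4) and 5.00 ± 0.581 CPM in the null group (SD, n = 5).

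Over all genes tested 52.2% were below 0, 10% were lower at an unadjusted p under 0.05 by edgeR, and the median log2 fold change was -0.035. Other genes of the type I response, 48 of 50 tested, had 29 below 0 and 19 above, with a median of -0.31. By edgeR 0 of these were called and 4 were lower at that unadjusted level. Among those with the smallest p were Slfn2, a regulator of lymphocyte and myeloid quiescence, with 176 ± 185 CPM in the WT (SD, n = 4) and 38.8 ± 15.6 CPM in the null group (SD, n = 5), and Ifitm1, which blocks viral entry, with 70.6 ± 38.6 CPM in the WT (SD, n = 4) and 22.02 ± 14.6 CPM in the null group (SD, n = 5). Null 7 was the lowest tumor for both. In this wider set null 7 led the null group for 17 of 48 genes (35.4%), near the 28.3% of all genes, against 26 of 35 members. Other parts of the order of tumors were seen here too. WT 6 was the lowest WT tumor for 33 of the 48 (68.75%) and for 27 of the 35 members, against 18.4% of all genes. WT 3 or null 7 was the highest of all tumors for 26 of the 48 (54.2%), against 38.2% of all genes. The interferon gamma class, 24 of 27 tested, had 17 below 0 and 7 above, 0 calls by edgeR and 6 lower at an unadjusted p under 0.05, with a median of -0.18. Psmb8, a subunit of the immunoproteasome, had 32.4, 66.5, 22.4 and 29.9 CPM in the WT and 8.93, 15.6, 18.9, 11.6 and 18.5 CPM in the null tumors. The groups did not overlap, where 3.49% of all genes were lower without overlap, and null 7 was lowest (log2 fold change -1.36, SE 0.35, edgeR adjusted p = 0.201). Psmb9 and Psmb10, of the same complex, had log2 fold changes of -1.43 and -1.04 (edgeR adjusted p = 0.201 and 0.233). WT 6 was the lowest WT tumor for 12 of the 24 genes of this class and for 7 of the 9 genes of restraint. It was so for 4 of the 10 receptors and kinases and 2 of the 14 genes of sensing and induction. Null 7 was the lowest null tumor for 11 of the 24 genes of the interferon gamma class (45.8%) and for 2 of the 35 members (5.71%), against 30.4% of all genes. The chemokine Cxcl10, which both kinds of interferon induce, was in contrast highest in null 7 and WT 3, at 9.38 and 5.07 CPM, against 0.573 to 2.53 CPM in the other 7.

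Markers of other cells moved between tumors too, and in whole-tumor RNA fewer cells of a type and less RNA per cell cannot be told apart. Levels of a marker list are mean log2 CPM of its tested members. Macrophage and monocyte markers, 15 of 15 tested, ran from 4.84 to 6.48 in the WT and 4.22 to 5.31 in the null group (p = 0.0873 by exact permutation, two-sided, and 0.240 after adjustment over 11 lists). Of its genes 12 were lower at an unadjusted p under 0.05, and 0 passed by edgeR, while DESeq2 called 4, Mrc1, Fcgr1, Lyz2 and Ccr2, all lower. Over all genes tested 10% were lower at that unadjusted level by edgeR, and DESeq2 called 3.39%. In the other lists DESeq2 called Cd79b and Mzb1 of B and plasma cells, Mmp9 of neutrophils and Egfl7 of endothelium, also lower. Null 7 had the lowest macrophage level, 4.22, but the monocyte marker Ly6c2, the 1 gene of this list above 0, was highest there, at 38.2 CPM against 0.410 to 6.37 CPM elsewhere (log2 fold change 2.02, edgeR adjusted p = 0.374). Null 7 had also the lowest level of fibroblast markers, 9 of 9 tested, at 3.57. WT 3 was next at 6.35, against 6.61 to 8.04 in the other tumors. Endothelial markers, 8 of 8 tested, were lowest in null 7 too, at 2.29 against 4.10 to 5.52. All 8 endothelial markers were below 0 (exact two-sided permutation p = 0.0635 for the list, adjusted p = 0.240). So were all 9 fibroblast, 8 neutrophil, 5 B and plasma and 5 T and NK markers tested, against 52.2% of all genes. Of the others tested, 14 of 15 macrophage and monocyte, 4 of 5 dendritic, 3 of 6 plasmacytoid, 3 of 5 acinar and 3 of 10 epithelial markers were below 0. WT 3 had the highest neutrophil level, 8 of 8 markers tested, 6.70 against 2.32 to 5.32, and null 7 the lowest. The 2 tumors with high members thus stood at opposite ends for neutrophil markers, and they were the 2 lowest for fibroblast markers. WT 6 and null 15 had the highest acinar levels, 5 of 8 markers tested, 5.00 and 4.50 against -1.72 to 0.94, with Prss1 at 0 counts in every tumor. T and NK markers, 5 of 13 tested, ran from -0.76 to 0.43 in the WT and -1.51 to 0.063 in the null group (exact two-sided permutation p = 0.0714, adjusted p = 0.240). B and plasma cell markers, 5 of 7 tested, ran from 0.39 to 2.13 and -1.999 to 0.90 (exact two-sided permutation p = 0.0317, adjusted p = 0.240). Dendritic cell markers, 5 of 8 tested, ran from 1.64 to 2.15 and 1.14 to 2.44. Of the plasmacytoid markers 6 of 8 were tested, at 1.45 to 2.80 and 1.22 to 2.96. The top values were those of WT 6 and null 15, where Klk1 of this list, a kallikrein that pancreas also makes, had 228 and 96 estimated counts against 0 to 51 elsewhere, and the same 2 tumors led the acinar markers. The defining marker Siglech did not pass the filter, at 0.258 CPM or less in every tumor. Epithelial markers, 10 of 10 tested, ran from 8.47 to 9.28 in the WT and 8.71 to 9.62 in the null group. The adjustment over 11 lists also took in a list of mitochondrial transcripts, 9 of 9 tested and all below 0. Its level was highest in null 7, 10.82, and WT 6, 10.79, against 8.95 to 10.48 elsewhere (exact two-sided permutation p = 0.167, adjusted p = 0.335). With the macrophage level as a covariate 28 of 35 members were below 0 with a median of -0.42, and with the T and NK level 26 of 35 with a median of -0.18; no member passed. Their part in the order of the tumors was not tested.

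**Figure D5:**
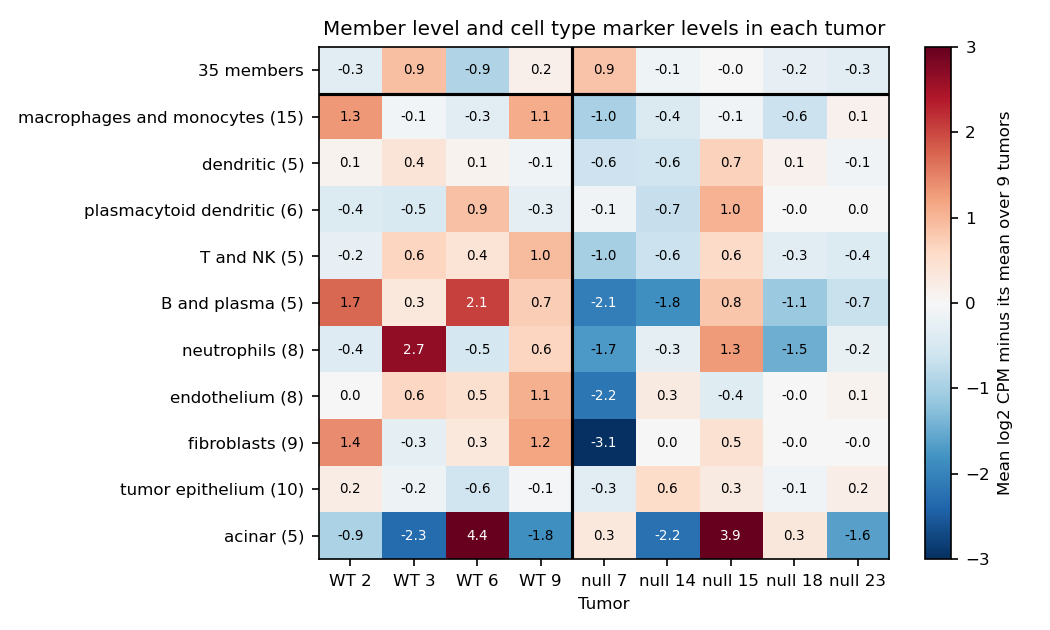
Mean log2 CPM of the 35 members (top row) and of each cell type marker list (number of markers tested in brackets) in each tumor, minus the mean of that row over the 9 tumors. The members are high in WT 3 and null 7, where neutrophil markers are highest and lowest. Null 7 is lowest for macrophage, fibroblast and endothelial markers, and WT 3 is next lowest for fibroblast markers.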

How the data were processed

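RNA of 9 whole frozen tumors was sequenced as mRNA libraries, per the labels' protocols. The authors deposited estimated counts per Ensembl gene, not normalized; Salmon 1.4.0 and DESeq 2 are named as tools and GRCm38 and mm10 as builds, per the submitters' processing notes. The annotation release and strand setting are not given in the sources used here. Symbols and positions came from GENCODE M21 (54200 of 54453 rows matched; exon length is the union of exons) and promoter windows from RefSeq (GRCm38.p6).

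Counts were rounded, moving none by more than 0.5. Genes passed filterByExpr (minimum count 10, minimum total 15). Groups were compared with the quasi-likelihood F test of edgeR 4.0.16 (R 4.3.3), after TMM scaling and without covariates, fitted and Benjamini-Hochberg adjusted over all 16169 genes; SE is the log2 fold change over the square root of F. Log2 CPM used a prior count of 2. Marker levels were compared by exact permutation over all splits into 4 and 5 tumors (smallest possible p 0.00794). On simulated data for this comparison, with 16169 genes, edgeR called 61 of 100 genes changed 4-fold and 3 of 100 changed 2-fold, with 3 false calls. The common biological coefficient of variation was 0.494, and no pair of libraries in a group agreed within sampling noise.

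Members and lists were chosen with earlier results of these data known. Per-tumor values are given for the 12 members with the smallest p and for 12 set by name, 3 of which are among those 12; outside the list, for Ifnar1, Ifnb1, Ifng, Cxcl10 and up to 3 genes per pathway list by p; some genes of this rule are not reported here. Ifit3b, Oas1g, Trim30d and the cell markers were named after their values were seen. Alternatives were other scalings, filters and tools (DESeq2 1.42.0, limma 3.58.1), covariates and tumors left out.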

Additional observations from a re-analysis of the deposited data

Results flagged for a closer look

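In 9 of 70 groups tested (35 members in 2 groups), 1 tumor lay farther from its nearest neighbour, on the log2 CPM scale, than Dixon's 95% critical value allows; chance alone flags about 1 in 20 groups, and the members share tumors. In the null group null 7 was high for Isg15 (11.0 CPM), Ddx58 (25.9 CPM), Mx2 (6.11 CPM), Irf7 (82.6 CPM) and Oas3 (14.2 CPM), and null 15 was high for Gbp2 (16.8 CPM) and Zbp1 (8.21 CPM). In the WT group WT 3 was high for Usp18 (20.3 CPM) and WT 6 was low for Parp14 (5.93 CPM).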

How the results depend on the processing

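No member that had a p-value was called under the 24 alternatives; DESeq2 gave none for Isg15, Mx2 and Rsad2. The shallowest member, Mx2, had 6 to 121 estimated counts. The count of members below 0 was 28 with the macrophage covariate (as reported, 19) and ran from 10 to 28 with 1 tumor left out. The median log2 fold change (as reported, -0.080) was 0.086 with limma-voom and 0.15 without both WT 3 and null 7, and ran from -0.28 to 0.37 with 1 tumor left out. Signs held under all 24 for 9 members (Dtx3l, Gbp3, Herc6, Ifi35, Mx1, Oas1a, Parp9, Trim30a and Xaf1). Where signs turned, the values were as follows, none called, and the cause was not tested. With the macrophage covariate they were -0.042 for Dhx58, -0.91 for Irf7, -0.16 for Irf9, 0.034 for Stat2, -0.68 for Ifit1, -0.20 for Ifit2, -0.66 for Ifit3, -0.67 for Oas3, -0.046 for Oasl2, -0.98 for Usp18, -0.54 for Mx2, 0.45 for Gbp2, 0.57 for Gbp7, -0.51 for Bst2, -1.19 for Rtp4, 0.28 for Parp14 and -0.15 for Ifi44. With the T and NK covariate they were -0.022 for Ddx58, -0.18 for Dhx58, 0.51 for Zbp1, 0.13 for Irf1, -0.10 for Irf7, -0.24 for Ifit2, -0.19 for Ifit3, -0.088 for Oas3, -0.76 for Usp18, -0.15 for Mx2 and -0.40 for Rtp4. With limma-voom they were -0.053 for Dhx58, 0.094 for Zbp1, -0.075 for Ifit2, 0.086 for Oas2, 0.27 for Rsad2, 0.086 for Cmpk2 and 0.15 for Parp14. Without both WT 3 and null 7 they were 0.43 for Zbp1, -0.082 for Ifit2, 0.24 for Oas2, 0.32 for Isg15, 0.48 for Rsad2 and 0.094 for Cmpk2. With the identifier range they were -0.24 for Dhx58, -0.027 for Oasl2 and -0.16 for Rtp4, with sex -0.055 for Ifit2 and -0.024 for Ifit3, with upper quartile scaling -0.024 for Dhx58, -0.025 for Ifit2 and -0.031 for Oasl2 and with total counts 0.080 for Zbp1. With 1 tumor left out the ranges were -0.24 to 0.085 for Stat2, -0.28 to 0.29 for Ifit2, -0.40 to 0.90 for Ifit3, -0.45 to 1.07 for Oas3, -0.50 to 0.12 for Gbp2, -0.40 to 0.12 for Parp14, -0.42 to 0.045 for Ifih1, -0.35 to 0.40 for Zbp1, -0.63 to 0.36 for Oas2, -0.69 to 0.018 for Oasl1, -1.25 to 0.61 for Isg15, -1.24 to 1.14 for Rsad2, -0.87 to 0.75 for Cmpk2, -0.17 to 0.37 for Dhx58, -0.14 to 0.54 for Oasl2, -0.51 to 0.030 for Gbp7, -0.37 to 1.66 for Irf7, -0.34 to 1.67 for Ifit1, -0.20 to 1.54 for Mx2 and -0.43 to 1.53 for Rtp4. WT 3 or null 7 was highest for 27 to 30 members, and WT 6 lowest of the WT tumors for 24 to 28, under the other scalings. The median SD of the members was 0.49 without both tumors (chosen after seeing the data; as reported, 0.66). No paired analysis was possible because the groups share no tumor numbers.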
